A study of Mus musculus with 36 samples.

Results

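PScG is the stimulation of mouse bone marrow-derived dendritic cells with 3 ligands at once, and it was compared with each of its 3 pairs, PS, PcG and ScG, so that each comparison asked what the ligand missing from the pair added. The groups were taken from the sample titles: 2 PScG libraries and 6 pair libraries, 8 of the 36 libraries of the series. P is the label's PAM, S is SeV and cG is 3',3'-cGAMP, with pairs and the triplet written by joining these letters. Every group held cells from female C57BL/6J mice of 6 to 8 weeks, grown from marrow with 15 ng/mL GM-CSF and exposed to the ligands for 6 h, and the control (Ctrl) had no ligand. Chromatin accessibility was read by ATAC-seq on 50000 cells a library. The ligand doses, and whether the 2 libraries of a group came from separate mice or cultures, are not given in the sources used here, so the p-values measure the spread between these libraries, which may be technical.

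PAM lipopeptides are read by Toll-like receptor 2, a surface receptor that signals through MyD88 to NF-kappaB and AP-1 and opens cytokine genes. SeV (Sendai virus) is an RNA virus that the cytosolic helicase RIG-I detects, and 3',3'-cGAMP is a bacterial cyclic dinucleotide bound by STING. The RIG-I and STING routes converge on the kinase TBK1 and the factor IRF3, which induce interferon beta, and secreted interferon then opens interferon-stimulated genes.

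Adding the third ligand moved a small share of loci. Against PS, cG changed 719 of 119464 tested peaks (0.602%), 440 higher (0.368%) and 279 lower (0.234%). Against PcG, S changed 492 peaks (0.412%), 241 higher (0.202%) and 251 lower (0.21%). Against ScG, P changed 5417 peaks (4.53%), 2524 higher (2.11%) and 2893 lower (2.42%). Against the mean of the 3 pairs, PScG differed at 921 peaks (0.771%), 459 higher (0.384%) and 462 lower (0.387%). A peak was called changed at a Benjamini-Hochberg adjusted p under 0.05 in edgeR's quasi-likelihood test, and all 4 comparisons share the 2 PScG libraries. None of the 293 peaks of the interferon-stimulated genes was called for cG or S, beside 0.602% and 0.412% of all tested peaks. At inflammatory cytokine and chemokine genes 29 of 173 peaks rose when P was added, beside 2.11% of all tested peaks. In such bulk samples a change in the share of cells with an open site cannot be told apart from a change within each cell.

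The 8 libraries held 10362974 to 21985891 counts outside the mitochondrial genome, and the 2 libraries of a group correlated at 0.922 to 0.958 (Pearson's r of log2 CPM across peaks, which are not independent; CPM is the count after TMM scaling of the libraries to a common size). The ScG libraries stood apart. The mitochondrial peak took 57.3% and 61.5% of their counts, against 44.4% to 46.6% in the PScG, PS and PcG libraries and 61.9% and 60.1% in control. Peaks within 1 kb of a gene start held 24.2% and 22.2% of ScG counts, against 25.7% to 27.2% in the other 6. Comparisons with ScG therefore cross a difference in the mitochondrial share that cannot be told apart from the ligand, while those with PS and PcG do not. Start-site peaks were found for 10 of 10 dendritic and myeloid marker genes, with a summed level of 193 to 232 CPM, and for 5 of 5 macrophage markers, at 109 to 136 CPM. Of the 20 dendritic and myeloid start-site peaks 1 was called higher with P. Of the 10 macrophage ones 1 was higher and 1 lower with P, beside 4.53% of all tested peaks called. Against the mean of the pairs 1 macrophage peak was lower, beside 0.771% called. Start-site peaks were also found for 3 of 4 NK cell markers (26.2 to 31.5 CPM summed), 2 of 6 neutrophil (13.0 to 22.2), 2 of 5 erythroid (12.8 to 17.7), 2 of 5 fibroblast (6.23 to 8.86), 1 of 6 T cell (4.94 to 8.52) and 1 of 5 B cell markers (3.95 to 9.97). None of the start-site peaks of these 6 lists was called in any of the 4 comparisons. There was none at Cd3d, Cd3e, Cd3g, Cd8a, Lck, Mpo or Ncr1, and the part of other cell types in the results was not tested.

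The promoters of 4 genes are shown because their loci carry the contrasts described here: Ifnb1 and Rsad2 for the interferon branch, Il6 and Il1b for the inflammatory branch. They are the 250 bases before the RefSeq start on GRCm38.p6, each inside a tested peak over the start, and capitals mark matches on either strand to an interferon-stimulated response element (ISRE: GAAA, any 2 bases, GAAA), an NF-kappaB site (GGGA, any 2 bases, TTCC) or an AP-1 site (TGANTCA), with no overlap between matches. Ifnb1, interferon beta, is at chr4:88522795-88523044, minus strand, with 1 NF-kappaB match. Rsad2, the antiviral enzyme viperin, is at chr12:26456453-26456702, minus strand, with 1 ISRE and 1 AP-1 match. Il6, interleukin 6, is at chr5:30012864-30013113, plus strand, with 1 NF-kappaB and 1 AP-1 match. Il1b, interleukin 1 beta, is at chr2:129371140-129371389, minus strand, with no match.
Ifnb1: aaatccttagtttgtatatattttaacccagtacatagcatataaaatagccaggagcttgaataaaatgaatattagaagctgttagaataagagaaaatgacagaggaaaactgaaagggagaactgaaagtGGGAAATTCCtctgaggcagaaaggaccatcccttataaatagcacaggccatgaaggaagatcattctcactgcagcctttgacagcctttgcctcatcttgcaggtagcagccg
Rsad2: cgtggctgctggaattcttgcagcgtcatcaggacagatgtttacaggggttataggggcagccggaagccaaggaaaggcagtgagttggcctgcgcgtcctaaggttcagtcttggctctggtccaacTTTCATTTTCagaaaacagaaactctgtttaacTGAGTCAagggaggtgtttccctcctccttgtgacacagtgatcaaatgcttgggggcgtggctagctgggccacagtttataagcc
Il6: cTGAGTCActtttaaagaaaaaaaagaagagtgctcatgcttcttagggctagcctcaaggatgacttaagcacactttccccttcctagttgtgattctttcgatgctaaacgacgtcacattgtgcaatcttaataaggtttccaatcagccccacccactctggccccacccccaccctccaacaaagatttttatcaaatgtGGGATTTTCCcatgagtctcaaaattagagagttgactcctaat
Il1b: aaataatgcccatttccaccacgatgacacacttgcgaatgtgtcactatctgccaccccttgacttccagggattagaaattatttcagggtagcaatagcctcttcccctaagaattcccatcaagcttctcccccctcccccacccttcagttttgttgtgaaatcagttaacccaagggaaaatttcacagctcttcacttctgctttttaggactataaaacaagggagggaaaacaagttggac

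Of 32851 promoters of that length, 2.98% hold the ISRE letters, 1.21% the NF-kappaB letters and 6.75% the AP-1 letters. The start-site peaks over the Ifnb1, Rsad2 and Il6 promoters were not called in any of the 4 comparisons, and the peak over the Il1b promoter was called for cG, for P and against the mean of the pairs. Among promoters inside peaks that rose with P, 8 of 220 (3.64%) hold the NF-kappaB letters, against 16 of 1571 (1.02%) inside peaks that fell and 195 of 13861 (1.41%) inside all tested peaks. For the ISRE letters these shares were 2.27%, 2.55% and 2.8%, and for the AP-1 letters 6.36%, 3.88% and 4.75%. Inside peaks that rose with cG, 1 of 54 promoters held the NF-kappaB letters and 6 of 54 the AP-1 letters. The shares were not tested. A match describes letters and no binding was measured.

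**Figure D1:**
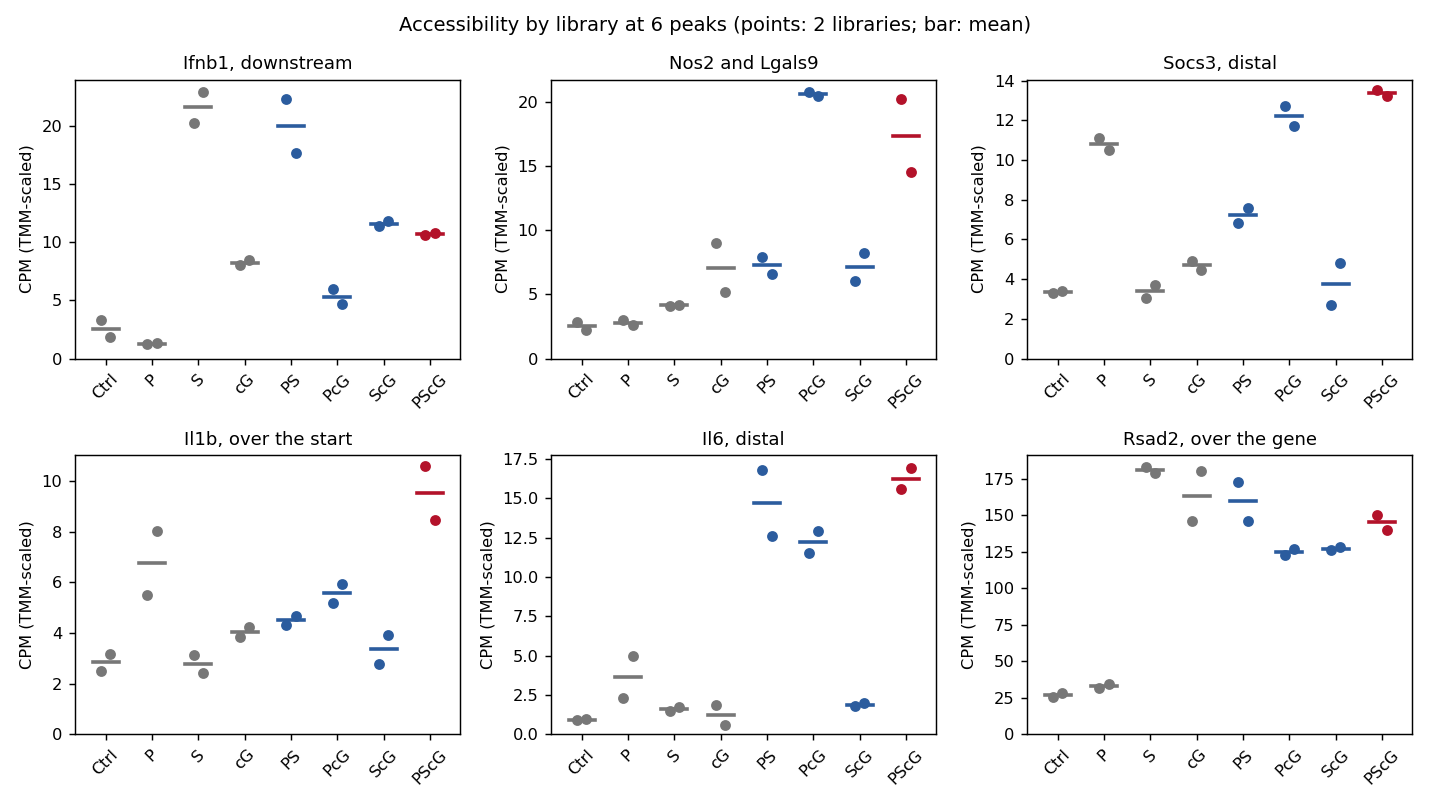
Accessibility in TMM-scaled CPM (vertical axis from 0) in both libraries of control, the 3 single ligands, the 3 pairs and PScG at 6 peaks; points are libraries, bars are means of 2, grey marks control and singles, blue the pairs and red PScG. At the Rsad2 peak PScG (150 and 140 CPM) sits among its pairs, at the Il6 peak it is far above ScG alone, and at Ifnb1 it lies between PS and PcG.

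At Rsad2 the pairs were already above control. Rsad2 is overlapped by a broad peak at chr12:26438731-26453446. It held 25.6 and 28 CPM in the control libraries, 31.4 and 34.7 in P, 183 and 179 in S, and 146 and 180 in cG. In the pairs it held 173 and 146 CPM in PS, 123 and 127 in PcG and 126 and 128 in ScG, and in PScG 150 and 140. PScG overlapped PS and lay above every PcG and ScG library, yet edgeR called none of the differences: the log2 fold change was -0.14 ± 0.0864 (SE) for cG, 0.21 ± 0.087 for S and 0.19 ± 0.0883 for P, with adjusted p of 0.631, 0.326 and 0.251.

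Few peaks were called across the list of interferon-stimulated genes (31 genes with 293 tested peaks, among them Ifit1, Isg15, Oas1a and Cxcl10). With cG added to PS or S added to PcG, 0 of the 293 peaks were called by edgeR, beside 0.602% and 0.412% of all tested peaks. At these shares few calls are expected in a list of 293 peaks, so 0 does not set it apart. An unadjusted edgeR p under 0.05 was reached by 21 and 43 of them, and by 11699 and 12443 of the 119464 tested peaks. DESeq2 called 0 for cG, and 1 higher and 1 lower for S. The median log2 fold change of the list was 0.05 in both, beside -0.01 and 0.01 over all tested peaks. With P added to ScG, 2 were higher and 2 lower (1.37% of the list, beside 4.53% of all tested peaks). Added to unstimulated cells, cG raised 132 of these peaks (11.6% of all tested peaks were higher) and S raised 135 (14.1%). Added to P alone, cG raised 127 (7.39%) and S raised 118 (9.36%).

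The peak over the Cxcl10 start, which serves a chemokine that draws T cells, lies at chr5:92344162-92349984 and also overlaps Art3. It held 60.0 and 57.8 CPM in PS, 54.4 and 54.3 in PcG, 55.9 and 55.8 in ScG and 66.1 and 60.7 in PScG. Both PScG libraries were above all 6 pair libraries, but the log2 fold changes of 0.11, 0.22 and 0.18 for cG, S and P were not called (edgeR adjusted p 0.807, 0.398 and 0.38). Ifit1, which encodes a protein that binds viral RNA, has a peak at chr19:34649632-34654426 that also overlaps Ifit1bl1. That peak held 46.9 and 34.8 CPM in PS, 33.4 and 38.3 in PcG, 34.6 and 45.7 in ScG and 44.2 and 51.6 in PScG, so the groups overlapped for PS and ScG. None of the 7 Rsad2, 11 Ifit1, 3 Cxcl10 or 9 Cd40 peaks was called in any of the 4 comparisons. At Cd40, a co-stimulatory receptor, all 9 log2 fold changes against PS, 8 of 9 against PcG and all 9 against ScG were above 0. They reached 1.41, 1.28 and 1.79.

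At Ifnb1 itself, 1 peak was called in opposite directions with cG and with S. The peak at chr4:88519372-88521906, just downstream of the gene, held 22.3 and 17.7 CPM in PS, 5.96 and 4.65 in PcG, 11.4 and 11.8 in ScG, and 10.6 and 10.8 in PScG. The PScG libraries lay below both PS libraries, above both PcG libraries and just under ScG. The log2 fold change was -0.89 ± 0.202 (SE) for cG added to PS (edgeR adjusted p 0.00883), 1.00 ± 0.223 for S added to PcG (adjusted p 0.0104) and -0.12 ± 0.218 for P added to ScG (adjusted p 0.858). S alone held 20.3 and 22.9 CPM here, cG alone 8.04 and 8.46, P alone 1.22 and 1.30, and control 3.28 and 1.83. A fit without 1 library leaves 1 library in a group and has larger standard errors. The cG call was lost without PS replicate 1 (-0.72), PScG replicate 1 (-0.88) or PScG replicate 2 (-0.91). The S call was lost without any 1 of its 4 libraries, at values of 0.84 to 1.20. Lost calls in such fits do not show that 1 library carried the change. Of the other 8 Ifnb1 peaks, none was called. The largest fold changes of the locus were at 1 of these and were decreases with both ligands, -2.33 for cG and -1.92 for S (log2). That peak held few counts, 4 and 3 in PScG, 25 and 33 in PS and 25 and 14 in PcG. Of all 9 peaks, 4 were above 0 for cG and 7 for S. The peak over the start held 8.66 and 7.63 CPM in PS, 1.89 and 3.38 in PcG, 6.98 and 8.41 in ScG and 4.94 and 4.06 in PScG, with log2 fold changes of -0.86 for cG, 0.79 for S and -0.78 for P (edgeR adjusted p 0.139, 0.273 and 0.105).

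Adding cG to PS raised loci of feedback regulators. The feedback list (genes that restrain or follow cytokine signalling, 17 genes) had 6 of its 167 peaks higher and 0 lower (3.59%, beside 0.602% of all tested peaks), 5 at Socs3 and 1 at Nos2. Lists for the RNA-sensing pathway (154 peaks), the STING pathway (59) and NF-kappaB and AP-1 factors (199) had 0 called. Among inflammatory genes 1 of 173 peaks rose, at Il1b. Without any 1 of the 4 libraries most of these 6 feedback calls were lost. In at least 1 of those fits a feedback peak was called as lower.

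Nos2 encodes the inducible nitric oxide synthase, and a peak at chr11:78959292-78963606 overlaps it and Lgals9. It held 7.90 and 6.62 CPM in PS, 20.8 and 20.5 in PcG, 6.05 and 8.19 in ScG and 20.2 and 14.5 in PScG. The groups with both P and cG were high and the others low, with no overlap. Its log2 fold change was 1.26 ± 0.184 (SE) for cG (edgeR adjusted p 9.28e-07) and 1.29 ± 0.202 for P (adjusted p 9.84e-07), and the cG call held without each library in turn (1.01 to 1.49). For S it was -0.26 ± 0.17 (adjusted p 0.632). P alone held 2.98 and 2.60 CPM and cG alone 8.99 and 5.16, against 2.84 and 2.22 in control.

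Socs3, which encodes an inhibitor of cytokine receptor signalling, had 11 peaks, of which 5 rose with cG, 7 with P and 0 with S. The peak at chr11:117961991-117962905, 6461 bp from the start, held 6.84 and 7.59 CPM in PS, 12.7 and 11.7 in PcG, 2.70 and 4.81 in ScG and 13.5 and 13.2 in PScG. Both PScG libraries were above every pair library. The log2 fold change was 0.88 ± 0.21 (SE) for cG (edgeR adjusted p 0.015), 0.12 ± 0.204 for S (0.901) and 1.85 ± 0.249 for P (6.6e-09). The cG call was lost without any 1 of the PScG or PS libraries (0.81 to 0.96, adjusted p 0.111 to 0.258), and the P call held without each library in turn. A nearer peak at chr11:117965007-117965946 held 2.51 and 3.72 CPM in PS, 3.62 and 6.12 in PcG, 3.81 and 1.86 in ScG and 7.00 and 7.26 in PScG, the highest 2 of the 8. It was called for cG (1.17, adjusted p 0.0257) and for P (1.31, adjusted p 0.00465) by edgeR, the first again not without any 1 library (adjusted p 0.0884 to 0.49).

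Il1b, the pro-inflammatory cytokine cleaved by the inflammasome, rose at its start. The peak at chr2:129370836-129371642 held 2.51 and 3.18 CPM in control, 4.33 and 4.68 in PS, 5.20 and 5.93 in PcG, 2.79 and 3.93 in ScG and 10.6 and 8.47 in PScG. PScG was above all 6 pair libraries and above P alone (5.49 and 8.02). The log2 fold change was 1.07 ± 0.255 (SE) for cG (edgeR adjusted p 0.0148), 0.77 ± 0.253 for S (0.155), 1.51 ± 0.286 for P (8.09e-05) and 1.12 ± 0.206 against the mean of the pairs (0.000543). For cG the call was lost without PScG replicate 1 (0.90, adjusted p 0.347), PS replicate 1 (1.02, 0.235) or PS replicate 2 (1.13, 0.172). Fscn1, the actin-bundling protein of mature dendritic cells, was called with cG at its start peak, chr5:142958952-142961393, at 10.5 and 9.01 CPM in PS and 16.3 and 17.1 in PScG. Its log2 fold change was 0.78 ± 0.182 (edgeR adjusted p 0.0111), not called without any 1 library (adjusted p 0.0608 to 0.302), and its PcG libraries, at 12.9 and 20.1 CPM, spanned those of PScG. The other maturation peak called with cG was at Ciita, chr16:10483362-10483746, at 0.188 and 0.565 CPM in PS and 2.96 and 1.92 in PScG (log2 fold change 2.57, edgeR adjusted p 0.0229), called only without PScG replicate 2 of the 4 libraries left out (2.86, adjusted p 0.0484).

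Among lower peaks, Irak3, an inhibitor of Toll-like receptor signalling, has a peak at chr10:120139078-120139618, outside the gene. It held 7.25 and 9.17 CPM in P, 5.71 and 4.48 in PS, 3.67 and 4.53 in PcG, 4.37 and 3.17 in ScG and 1.71 and 2.49 in PScG, the lowest 2 of the 8. For cG the log2 fold change was -1.25 ± 0.327 (SE; edgeR adjusted p 0.0357), not called without any 1 library (adjusted p 0.104 to 0.476). A neighbouring peak at chr10:120140791-120141635 was lower with S (-0.63, edgeR adjusted p 0.043), at 15.2 and 15.4 CPM in PcG and 10.4 and 9.46 in PScG, and was not called without any 1 library either (adjusted p 0.182 to 0.308).

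By size, the largest increases with cG reported here were at peaks of low count. They lay inside Galm, a sugar epimerase (chr17:80149007-80149326) and Eml6 (chr11:29997648-29998024), and outside Stmn3 (chr2:181303938-181304418). At the Stmn3 peak PS held 0.565 and 0.444 CPM and PScG 5.39 and 2.35, with 0.51 to 1.58 in the other 4 pair libraries. Its log2 fold change was 2.92 ± 0.594 (SE) for cG (edgeR adjusted p 0.002), 2.39 for S (adjusted p 0.0221) and 2.33 ± 0.426 against the mean of the pairs (adjusted p 0.000504), and without PScG replicate 1 these were 2.22 for cG (0.284) and 1.63 for the mean (0.359). The Galm peak held 0.0627 and 0.202 CPM in PS and 1.17 and 3.20 in PScG, but also 1.30 and 1.31 in ScG. The largest decreases were inside Marchf6 (chr15:31510512-31510811, -2.80, adjusted p 0.0141), Tbc1d14 (chr5:36536584-36537020, -2.19, 0.0476), 0610030E20Rik (chr6:72349515-72350141, -2.12, 0.00867) and Bbx (chr16:50196128-50196529, -2.12, 0.0436) by edgeR. None of these 7 calls held without each of its 4 libraries in turn.

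Adding S to PcG changed the fewest loci, and in the lists they were single peaks. A single peak rose in each of the interferon regulator, inflammatory, NF-kappaB and AP-1, and maturation lists (at Ifnb1, Ccl4, Junb and Ciita) and 1 fell in the list for receptors of P (Irak3), with 0 in the other 5 lists. These are 0.568%, 0.578%, 0.503% and 0.49% of the peaks of the lists with a rise and 0.943% of that with Irak3, beside 0.412% of all tested peaks. With at most 1 called peak a list, these shares do not set the lists apart from that background. Junb, an AP-1 subunit, has a peak at chr8:84984510-84986642, nearest to Hook2, that held 44.0 and 46.3 CPM in PS, 40.4 and 41.6 in PcG, 57.4 and 54.9 in ScG and 58.0 and 57.6 in PScG. The 4 libraries with S and cG together were above the other 4. For S the log2 fold change was 0.50 ± 0.104 (SE; edgeR adjusted p 0.00466). Ciita, the master regulator of MHC class II genes, has a peak at chr16:10495869-10496573 that held 8.53 and 8.76 CPM in PS, 7.75 and 7.72 in PcG, 11.4 and 11.3 in ScG and 14.7 and 12.8 in PScG. PScG was the highest of the 4 groups, and the log2 fold change with S was 0.83 ± 0.199 (edgeR adjusted p 0.0216).

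Ccl4, a chemokine that attracts immune cells, was called with S at the peak chr11:83662136-83665073. It held 39.5 and 35.4 CPM in PS, 22.5 and 28.2 in PcG, 31.5 and 31.6 in ScG and 37.1 and 33.4 in PScG, for a log2 fold change of 0.48 ± 0.124 (SE; edgeR adjusted p 0.0445). The PcG libraries were the lowest of the 8. The Junb, Ciita, Ccl4 and Ifnb1 calls were each lost without any 1 of the 4 PScG and PcG libraries, at adjusted p of at least 0.0643 for Junb, 0.0789 for Ciita, 0.0517 for Ccl4 and 0.0751 for Ifnb1.

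The largest increases with S reported here were inside Magi3 (2.53, edgeR adjusted p 0.0163) and Phactr2 (chr10:13287256-13287571, 2.52, 0.0107) and beside Gal (chr19:3419265-3419642, 2.52, 0.011). At the Magi3 peak, chr3:104125406-104125808, PcG held 0.51 and 0.383 CPM, PScG 3.50 and 1.85, PS 0.878 and 1.37 and ScG 4.74 and 3.50, so ScG was at or above PScG. The largest decreases were inside Mettl9 (-2.29, 0.00331), Thrb (chr14:17982118-17982519, -1.99, 0.0453), Poc1b (chr10:99169657-99170143, -1.87, 0.007) and Cfap61 (chr2:146130394-146131097, -1.85, 0.00728). At the Mettl9 peak, chr7:121059468-121060048, the PScG libraries, at 0.359 and 0.711 CPM, were the lowest of the 8, against 3.31 and 2.10 in PcG, 2.2 and 1.66 in PS and 1.58 and 1.09 in ScG. None of these 7 calls held without each of its 4 libraries in turn.

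**Figure D2:**
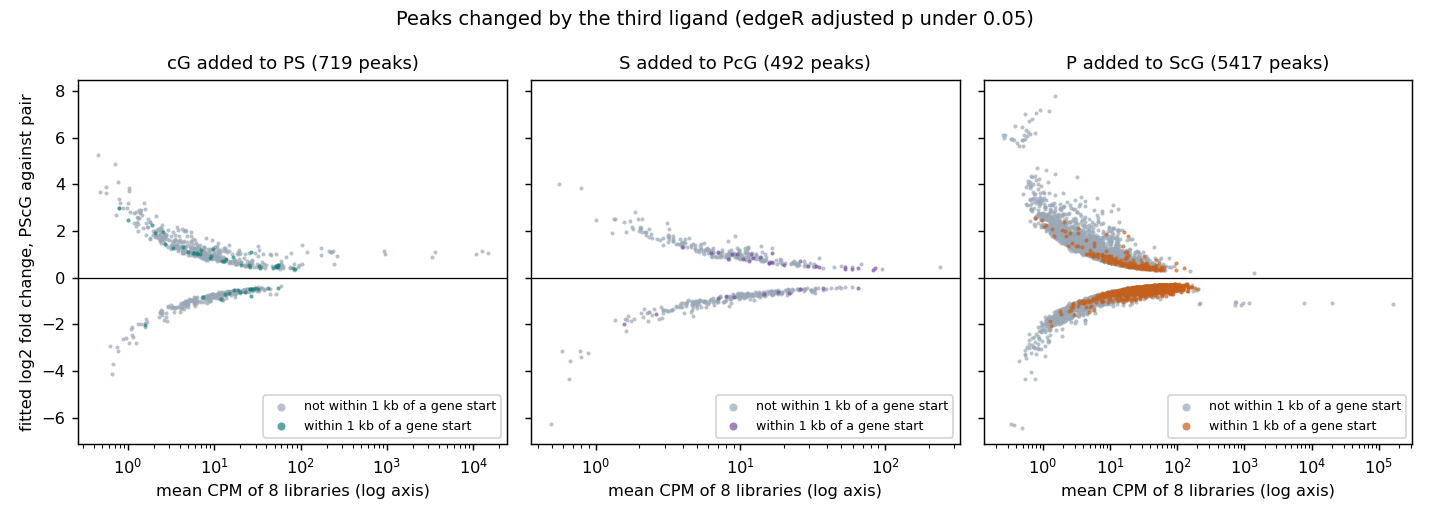
Peaks called for each added ligand: mean CPM of the 8 libraries (log axis) against the fitted log2 fold change of PScG over the pair; coloured points lie within 1 kb of a gene start and grey points do not. With P, 1110 of the 2893 lower peaks are at gene starts, many at high CPM and small fold change, whereas the cG and S calls are fewer and mostly away from starts.

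The called peaks lay in different positions. Of the peaks that rose, 8.41% with cG, 10.8% with S and 7.09% with P lay within 1 kb of a gene start, beside 10.5% of all tested peaks. Of the peaks that fell, the shares were 6.45%, 4.38% and 38.4%. The 2893 peaks lower with P were wide and strong, with a median width of 1046 bp and 19.1 CPM, beside 451 bp and 2.14 CPM over all tested peaks, and their median log2 fold change was -0.61. The peaks higher with P had a median log2 fold change of 1.08. The share of counts at starts was itself lower in the ScG libraries, by the values given above, with TMM factors of 0.921 and 0.849, and their part in the start-site calls was not tested.

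Adding P to ScG raised peaks at inflammatory genes. The inflammatory list (21 genes) had 29 of 173 peaks higher and 1 lower (17.3%, beside 4.53% of all tested peaks), with a median log2 fold change of 0.37 beside 0.01. The higher peaks were 5 of 15 at Il1a, 4 of 11 at Il1b, 5 of 14 at Il6, 2 of 13 at Il10, 2 of 6 at Il12b, 1 of 11 at Il27, and 10 at the chemokine and growth factor genes Cxcl1, Cxcl3, Ccl2, Ccl3, Ccl5 and Csf3. The 1 lower peak was at Il15. Feedback regulators had 21 of 167 peaks higher and 0 lower (12.6%), 7 at Socs3 and 4 of 11 at Dusp1, a phosphatase of MAP kinases. NF-kappaB and AP-1 genes had 17 of 199 higher and 2 lower (9.55%), 5 of 8 at Batf, and 3 of 9 at Tnfaip3, the NF-kappaB inhibitor A20. Maturation genes had 13 of 204 higher and 0 lower (6.37%), among them 4 of 19 at Cd274 (PD-L1), 3 of 20 at Pdcd1lg2 (PD-L2) and 3 of 9 at the homing receptor Ccr7. Without 1 library the inflammatory count was 13 (ScG replicate 2), 17 (PScG replicate 2), 18 (ScG replicate 1) or 20 (PScG replicate 1), and the feedback count was 9, 11, 17 and 10 in that order. The NF-kappaB and AP-1 count was 13, 11, 8 and 14, and the maturation count 4, 6, 11 and 7.

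Other lists moved less. Interferon regulators had 6 of 176 peaks higher and 1 lower (3.98%), receptors and adaptors of P 3 of 106 higher and 1 lower (3.77%), the RNA-sensing pathway 1 of 154 higher and 2 lower (1.95%), and the STING pathway 0 of 59 higher and 1 lower. Housekeeping genes had 0 of 62 higher and 2 lower, at the Hprt start and at the Pdcd6 start beside Sdha.

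**Figure D3:**
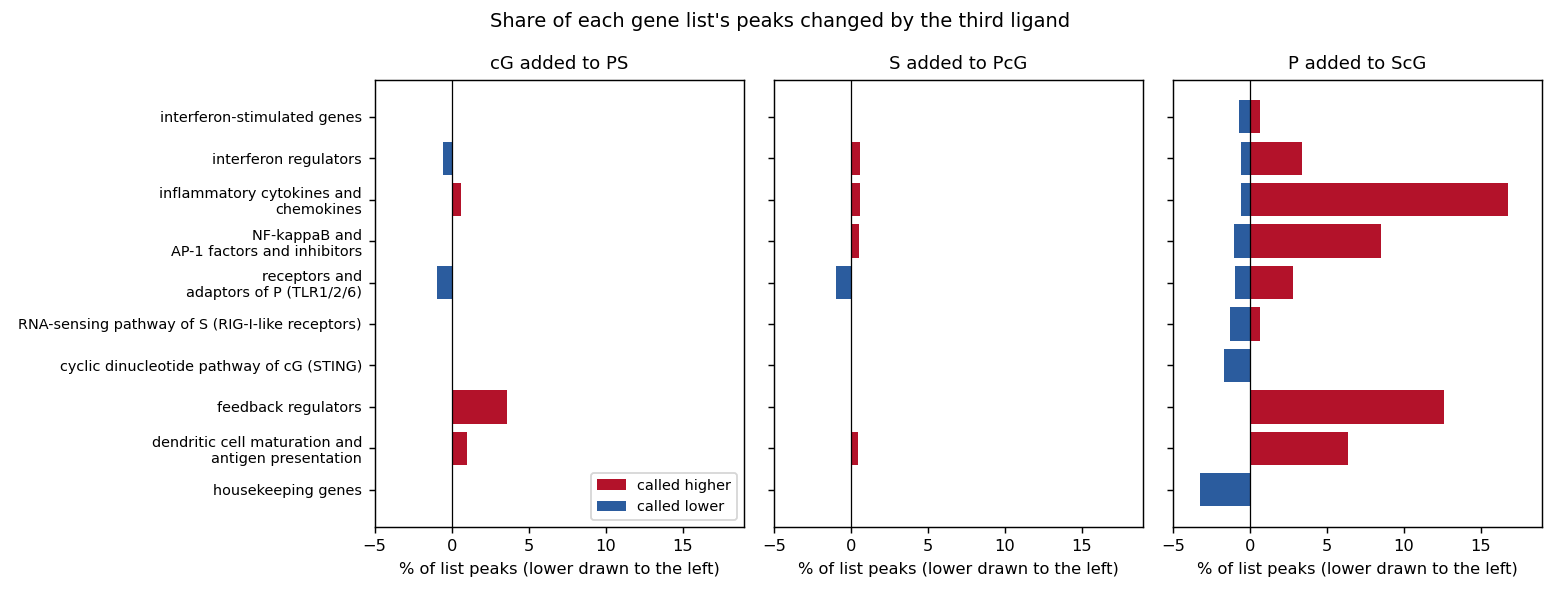
Share of each gene list's tested peaks called higher (red, to the right) or lower (blue, drawn to the left) in percent, for each added ligand. With P the inflammatory, feedback, NF-kappaB and AP-1 and maturation lists come to 17.3%, 12.6%, 9.55% and 6.37% with both directions added, and interferon-stimulated genes to 1.37%.

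The peak with the clearest change was downstream of Il6. At chr5:30021251-30023211, 8137 bp from the start, control held 0.874 and 0.965 CPM, P 2.29 and 4.98, S 1.5 and 1.72 and cG 1.83 and 0.573. The pairs with P were high, at 16.8 and 12.6 CPM in PS and 11.5 and 12.9 in PcG, while ScG held 1.77 and 1.97 and PScG 15.6 and 16.9. PScG and ScG did not overlap, and the log2 fold change with P was 3.12 ± 0.307 (SE; edgeR adjusted p 5.14e-15), at 3.04 to 3.19 and called without each library in turn. With cG it was 0.15 ± 0.227 (adjusted p 0.896) and with S 0.41 ± 0.23 (0.541). The Il6 start peak was not called with P, at 20.0 and 21.9 CPM in ScG and 25.9 and 28.1 in PScG (0.37 ± 0.141, edgeR adjusted p 0.117).

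Il1a, the cytokine beside Il1b, has a distal peak at chr2:129318198-129318693. It held 4.2 and 3.80 CPM in PS, 3.26 and 4.53 in PcG, 0.558 and 0.656 in ScG and 4.22 and 4.41 in PScG. ScG alone was low, near the 0.219 and 0.289 CPM of control, and the log2 fold change with P was 2.82 ± 0.481 (SE; edgeR adjusted p 7.95e-06). Inside Il1b, the peak at chr2:129363814-129365242 held 2.57 and 2.10 CPM in PS, 4.89 and 3.95 in PcG, 0.372 and 0.874 in ScG and 4.58 and 4.84 in PScG. It rose by 2.94 ± 0.459 on the log2 scale with P (edgeR adjusted p 7.64e-07). Batf, an AP-1 family factor of dendritic and T cells, has an intragenic peak at chr12:85703304-85703941 that held 12.2 and 13.0 CPM in PS, 9.18 and 9.88 in PcG, 2.79 and 3.61 in ScG and 13.2 and 14.4 in PScG. It rose by 2.12 ± 0.285 (edgeR adjusted p 7.87e-09). All 3 calls held without each library in turn.

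Il12b encodes the p40 chain of interleukin 12. Its peak at chr11:44389800-44390733, 9330 bp upstream of the start, held 6.56 and 6.85 CPM in control, 36.9 and 35.5 in P, 39.5 and 40.2 in PS, 38.0 and 40.0 in PcG, 27.2 and 28.6 in ScG and 40.9 and 41.8 in PScG. Every P, PS, PcG and PScG library lay between 35.5 and 41.8 CPM. The log2 fold change of P on ScG was 0.57 ± 0.121 (SE; edgeR adjusted p 0.000608).

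Single peaks of the interferon and receptor lists were called with P in both directions, at shares of 1.37%, 3.98% and 3.77% that are below the 4.53% of all tested peaks. Of their peaks, 1 each at Zbp1, Trim21, Tyk2 and Irak4 was lower. The peak assigned to Zbp1, a sensor of nucleic acids, at chr2:173224034-173224541 lies inside Pmepa1 and held 4.65 and 4.04 CPM in ScG and 2.07 and 1.57 in PScG. Its log2 fold change was -1.27 ± 0.372 (SE; edgeR adjusted p 0.024), and it was called in 0 of the 4 fits without 1 library (adjusted p 0.0667 to 0.255). Usp18, a negative regulator of the interferon receptor, has an intragenic peak at chr6:121249901-121250599 that held 12.0 and 12.2 CPM in PS, 11.2 and 12.3 in PcG, 3.16 and 2.19 in ScG and 11 and 10.4 in PScG, beside 13.6 and 10.3 in P. It rose by 1.98 ± 0.272 on the log2 scale (SE; edgeR adjusted p 1.31e-08). Ifnar2, a chain of that receptor, has an intragenic peak at chr16:91402851-91403745 that held 6.96 and 8.28 CPM in PS, 11.5 and 13.3 in PcG, 3.63 and 2.29 in ScG and 7.72 and 8.68 in PScG. It rose by 1.45 ± 0.266 (adjusted p 3.96e-05, edgeR), and P alone was highest, at 16.4 and 20.2 CPM. Tlr6, which pairs with Toll-like receptor 2, held 26.4 and 24.1 CPM in ScG and 36.5 and 40.6 in PScG at the peak near its start, chr5:64960558-64961957. There the log2 fold change was 0.61 ± 0.122 (edgeR adjusted p 0.000222). The Usp18, Ifnar2 and Tlr6 calls held without each library in turn.

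Peaks at starts that fell with P included Ifih1, the RNA sensor MDA5. Its start peak at chr2:62645322-62647398 held 47.2 and 44.1 CPM in PS, 43.7 and 38.3 in PcG, 54.5 and 50.7 in ScG and 39.2 and 41.5 in PScG. ScG was the highest group, near S (54.4 and 51.1) and cG (56.3 and 54.7). The log2 fold change was -0.38 ± 0.107 (SE; edgeR adjusted p 0.0172), and it was -0.09 (adjusted p 0.695) with libraries scaled by total counts in place of TMM. The call held without ScG replicate 2 and was lost without ScG replicate 1 (-0.33, adjusted p 0.198), PScG replicate 1 (-0.34, 0.165) or PScG replicate 2 (-0.42, 0.069). At the Trim32 start, a ubiquitin ligase gene of the STING list, ScG held 22.5 and 20.9 CPM and PScG 14.4 and 12.2, a log2 fold change of -0.71 ± 0.155 (edgeR adjusted p 0.00082), lost without PScG replicate 2 (-0.60, adjusted p 0.0768) and with total-count scaling (-0.42, 0.0782).

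By size, the largest increases with P were at peaks nearly empty in ScG. The peak inside Btbd9, chr17:30353697-30354035, had 0 counts in both ScG libraries and 51 in PScG, at least 13.5-fold higher against a floor of 3 counts over the group. The peaks beside Glb1, inside Acpp and beside Lztfl1 had 1, 2 and 2 counts in ScG and 37, 46 and 35 in PScG. Their log2 ratios of summed counts were 4.87 (95% counting interval 2.30 to 10.21), 4.18 (2.25 to 7.27) and 3.79 (1.83 to 6.89). The largest decreases reported here were inside Dis3l2 (chr1:86884585-86884842, -2.91, edgeR adjusted p 0.00566), Ccn3 (chr15:54747225-54747675, -2.77, 0.00197) and Cdk14 (-2.51, 0.000369). At Cdk14, chr5:5311680-5312038, ScG held 3.26 and 4.15 CPM and PScG 0.808 and 0.498, with P alone at 0 and 0.0722, and the call held without each library. At Dis3l2 ScG replicate 1 held 3.35 CPM and ScG replicate 2 0.983, and the call was lost without ScG replicate 1 (-1.76, adjusted p 0.416) or PScG replicate 2 (-2.01, 0.246). The Ccn3 call was lost without ScG replicate 1 (-2.30, 0.0979) or PScG replicate 1 (-2.24, 0.0975), and without ScG replicate 2 the Glb1 and Lztfl1 calls were lost (adjusted p 0.0562 and 0.114).

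With the mitochondrial share as a covariate, P added to ScG changed 26 peaks in place of 5417, 25 of them among the 5417, and 97.6% of the 5417 had the same sign. With 1 coefficient per group, the slope of this covariate rests only on differences in the share between the 2 libraries of a group. Those are smaller than the difference between ScG and PScG, so this fit cannot separate the share from the ligand. The median standard error was 0.837 on the log2 scale in place of 0.437. At the Il6 peak the value was then 2.31 ± 0.608 (edgeR adjusted p 0.164), and of the inflammatory peaks 0 were called while 30 of 30 had the same sign. The other 2 comparisons that add P without crossing that difference are PS against S, with mitochondrial shares of 45% to 48.7%, and PcG against cG, with 44.5% to 47.3%. In PS against S, 2.44% of all tested peaks were higher and 0.492% lower, and in PcG against cG 5.59% and 3.52%. In them P raised 29 and 34 of the 173 inflammatory peaks and lowered 3 and 1, and raised 16 and 26 of the 167 feedback peaks and lowered 1 and 3. For the maturation list the counts were 0 in PS against S and 11 higher and 5 lower in PcG against cG.

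Against the mean of its pairs, PScG was higher at 8 of 167 feedback peaks (4.79%, beside 0.771% of all tested peaks), 6 of 173 inflammatory peaks (3.47%), 4 of 204 maturation peaks (1.96%) and 4 of 199 NF-kappaB and AP-1 peaks (2.01%), with 0 lower in these lists. Of the 8 feedback peaks 6 were at Socs3. The peak at chr11:117961991-117962905 had a log2 fold change of 0.95 ± 0.173 (SE; edgeR adjusted p 0.000459), lost without PScG replicate 1 (0.94, adjusted p 0.0606), and the Il6 peak at chr5:30021251-30023211 had 1.23 ± 0.197 (adjusted p 3.87e-05). ScG was the only low pair at the Il6 peak. ScG, with its high mitochondrial share, is 1 of the 3 pairs in this mean. With that share as a covariate 95 peaks were called in place of 921. Against PS, PcG and ScG singly, 1, 1 and 29 inflammatory peaks and 0, 1 and 17 NF-kappaB and AP-1 peaks were higher. For feedback these were 6, 0 and 21, and for maturation 2, 1 and 13. Without PScG replicate 1, 51 of the peaks in place of 921 were called, 2 of them feedback, 1 inflammatory and 1 NF-kappaB and AP-1. Without PScG replicate 2, 173 were called, 3 feedback, 2 inflammatory and 0 NF-kappaB and AP-1. Of the 4 maturation peaks, 0 were called without either PScG library, PS replicate 1, PcG replicate 1 or ScG replicate 2.

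Whether these loci follow the same ligand elsewhere was read in additions that share no library with the comparison that chose them. Of the 440 peaks higher with cG on PS, 48.6% were higher in cG against control (median log2 fold change -0.02), but 83.9% in PcG against P (0.40), 93.9% in ScG against S (0.76), 72.7% in ZcG against Z (0.27) and 83.9% in ZScG against ZS (0.30), where Z is depleted zymosan. Of all tested peaks, 49.1% to 50.9% were higher in these 5 additions. The value for cG against control depended on the peaks called: without PScG replicate 1, 35.5% of 62 higher peaks were higher there (median -0.40), without PScG replicate 2 33.1% of 293 (-0.30), and with total-count scaling 60.3% of 348 (0.17). The mitochondrial share was lower in cG than in control and higher in ScG than in S, while ZcG (62.8% and 63.1%) and Z (62.4% and 60.9%) were alike, and its part in these values was not tested. The 279 lower peaks were lower in 69.5% to 85.7%, but with total-count scaling 48.6% of 313 lower peaks were lower in cG against control (median 0.04).

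Of the 241 peaks higher with S on PcG, 82.6% were higher in S against control (median 1.37), 83.0% in PS against P (0.63), 88.8% in ScG against cG, 89.6% in ZS against Z and 90.0% in ZScG against ZcG. The lower peaks were lower in 72.9% to 93.2%. Without PScG replicate 2, 58.3% of 72 higher peaks were higher in S against control (median 0.79) and 65.3% in PS against P (0.30), and without PScG replicate 1 these were 95.8% of 24 (2.33) and 100% (1.22). For P, 89.9% of the 2524 higher peaks were higher in P against control (median 1.01), 92.3% in PS against S (0.63) and 87.9% in PcG against cG (0.77), and 86.3% to 89.1% of the lower peaks were lower. With total-count scaling the medians of the higher peaks were 0.30 in PS against S and 0.32 in PcG against cG.

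**Figure D4:**
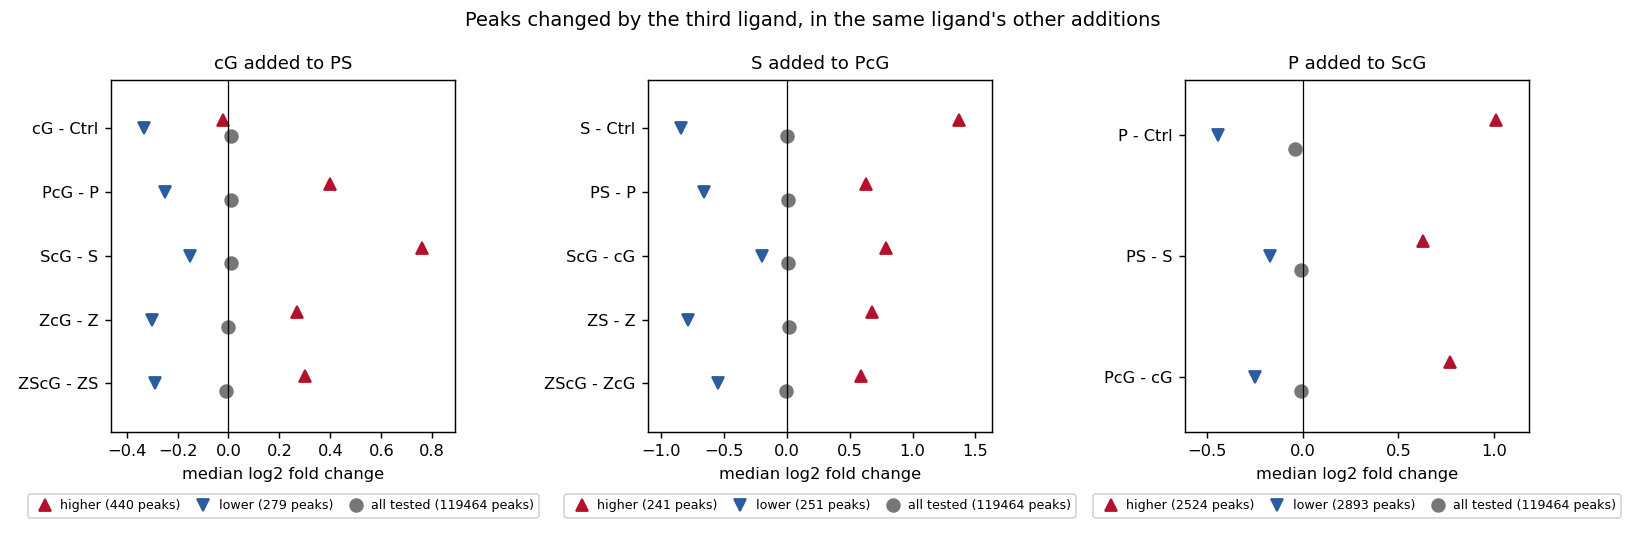
Median log2 fold change, in other additions of the same ligand, of the peaks called higher (red), called lower (blue) or tested (grey) for each added ligand; no addition shares a library with the comparison that chose the peaks. For cG the higher peaks have a median of -0.02 in cG against control (-0.40 and -0.30 without PScG replicate 1 or 2, 0.17 with total-count scaling) and 0.27 to 0.76 in the other 4 additions, while the S and P peaks are displaced in every addition.

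The effect of a ligand as the third was also tested against its effect alone. It differed at 12599 peaks for cG (10.5%; 5029 higher, 4.21%, and 7570 lower, 6.34%), at 13490 for S (11.3%; 5689 higher, 4.76%, and 7801 lower, 6.53%) and at 5120 for P (4.29%; 1351 higher, 1.13%, and 3769 lower, 3.15%) by edgeR. At the Rsad2 peak the difference was -2.74 ± 0.132 (SE, log2; edgeR adjusted p 1.46e-47) for cG and -2.54 ± 0.132 (3.91e-43) for S. At the Ifnb1 peak it was -2.60 ± 0.345 for cG (6.38e-10) and -2.10 ± 0.349 for S (1.36e-06), and at Ccl4 -1.22 ± 0.195 for S (4.89e-07). Of the 293 peaks of interferon-stimulated genes, 79 were lower and 0 higher for cG (27.0%), 85 lower and 0 higher for S (29.0%), and 4 lower and 5 higher for P. For P the difference at the Il12b peak was -1.86 ± 0.195 (1.12e-14). The cG and S tests set control, with the high mitochondrial share, against libraries with the low one. With that share as a covariate 2411 and 3312 peaks were called, and the Rsad2 values were -2.73 ± 0.195 and -2.54 ± 0.188 and the Ifnb1 values -2.93 ± 0.521 and -2.40 ± 0.504. Here too the slope rests on differences within groups, so these values do not separate the share from the ligands. P on ScG against P alone is balanced in that share and had 4826 called with the covariate.

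Very abundant peaks also differed between the groups. The 35 peaks with a mean of at least 200 CPM over the 8 libraries took 32.8% and 38.9% of counts outside the mitochondrial genome in ScG, 20.3% to 22.3% in PS and PcG, and 25.2% and 22.6% in PScG. The strongest, at chr1:24611386-24616337 outside a gene and nearest to Col19a1, took 22.1% and 26.3% in ScG, 13.3% and 14.0% in PcG, 13.7% and 14.6% in PS and 14.0% and 13.3% in PScG. Control, also high in mitochondrial share, held 27.0% and 25.1%, and P, S and cG alone, at lower mitochondrial shares, held 13.7% to 17.1%. The log2 fold change of this peak with P was -1.12 ± 0.159 (SE; edgeR adjusted p 0.000214), and its relation to the mitochondrial share was not tested. Peak sequences were not read. Signal from repeated or mitochondria-like sequence therefore cannot be told apart from open chromatin at the very abundant peaks. With P, 12 of the 35 were lower and 1 higher. With cG, 13 were higher and 0 lower, such as chr9:2999874-3038397, nearest to Alkbh8 (1.13 ± 0.187, edgeR adjusted p 0.00594), and chr2:98666084-98667466, nearest to Lrrc4c (1.05 ± 0.181, 0.00873). The split of calls moved with their place in the scaling: by total counts P changed 11241 peaks, 95.7% of them higher, and by total counts without the 35 peaks 5409, 57.3% higher, beside 46.6% of 5417 as analysed.

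**Figure D5:**
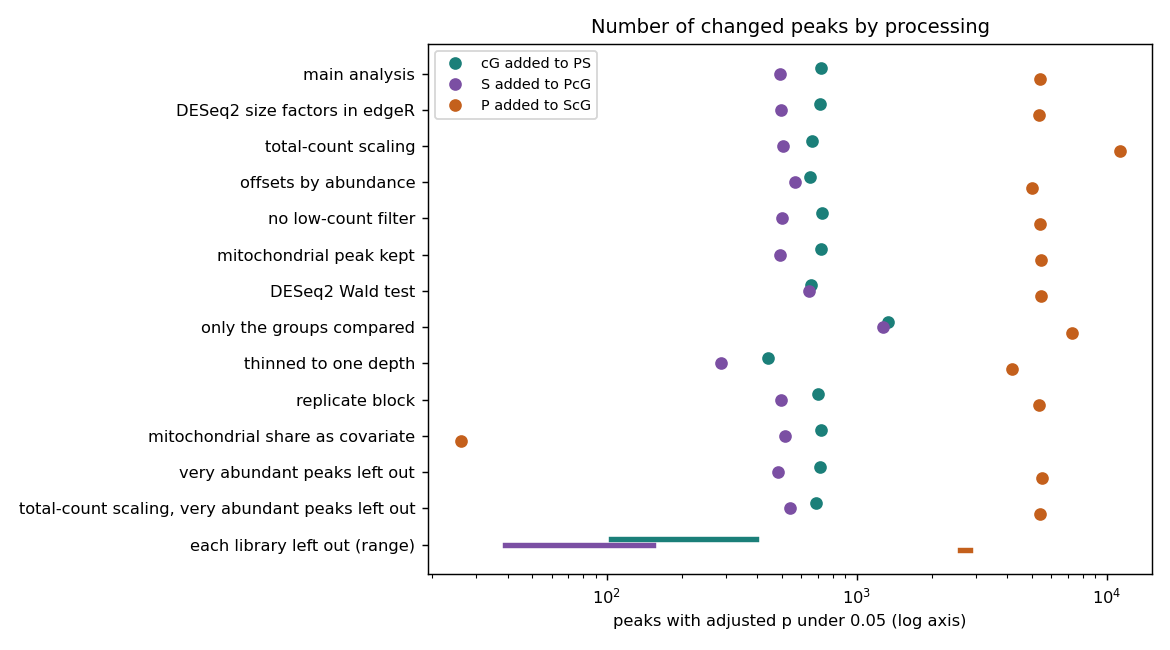
Number of peaks called (log axis) for each added ligand as analysed and under each alternative; the bars at the bottom span the fits that leave out 1 library. The P count drops to 26 with the mitochondrial share as a covariate and rises to 11241 with total-count scaling, and the cG and S counts fall to 104 to 395 and 39 to 153 when a library is left out.

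Leaving out 1 library lowered the counts for each added ligand. Such a fit leaves 1 library in a group, and its median standard error over all tested peaks was larger. It was 0.481 to 0.514 for cG in place of 0.403 and 0.492 to 0.517 for S in place of 0.408. For P it was 0.523 to 0.549 in place of 0.437. A call lost in these fits therefore does not show that 1 library carried it. For cG on PS, 104 peaks were called without PScG replicate 1, 125 without PS replicate 2, 171 without PS replicate 1 and 395 without PScG replicate 2. For S on PcG, 39 were called without PScG replicate 1, 54 without PcG replicate 1, 93 without PcG replicate 2 and 153 without PScG replicate 2. For P on ScG the counts were 2578 without PScG replicate 2, 2699 without ScG replicate 2, 2778 without PScG replicate 1 and 2830 without ScG replicate 1.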

How the data were processed

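ATAC-seq was run with 12 PCR cycles and 42 read cycles, per the labels' protocols. The authors deposited raw counts, whole numbers per peak and library, for 119751 peaks in 36 libraries, with 0 columns unused here, and a list of peak positions. Bowtie2 2.2.9, MACS2 (given as 1.4), bedtools, featureCounts and mm10 are named in the submitters' processing notes. Whether read ends were shifted, duplicates removed or peaks called on pooled libraries is not given in the sources used here. Reads carry no molecular identifiers, so intervals and floors cover counting error only.

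The mitochondrial peak was left out, and filterByExpr (minimum count 10) removed 286 peaks. After TMM scaling, edgeR 4.0.16 was fitted to all 36 libraries (R 4.3.3; quasi-likelihood, robust, 1 coefficient per group, 18 residual degrees of freedom, no block), with Benjamini-Hochberg adjustment over 119464 peaks and a threshold of 0.05. The standard errors (SE) printed with edgeR values are the absolute log2 fold change divided by the square root of the test's F statistic. The test was checked on simulated counts. Alternatives used DESeq2 1.42.0 and limma 3.58.1. Gene coordinates and starts are RefSeq's on GRCm38.p6: 165 of 171 list symbols matched and 128 had a start. A list's peaks overlap its genes or lie within 10 kb of an end, so some lie in a neighbouring gene. Members and lists were chosen with earlier results of these data known.

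Named peaks are the 4 highest and 4 lowest called fold changes per pair comparison (2 and 2 for the mean), with a mean CPM of at least 1, PScG libraries beyond the pair's and within 10 kb of a gene, plus up to 3 called peaks per list and whole loci of 8 genes; the very abundant peaks, and the promoters shown, were named after their values were seen. Of these, 2 peaks on chromosome 18 and 1 other peak are not reported here.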

Additional observations from a re-analysis of the deposited data

Results flagged for a closer look

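The effect of the third ligand differed from its effect on unstimulated cells, by a test of the difference itself, at 12599 peaks for cG, 13490 for S and 5120 for P. Single peaks with such a difference (log2, added minus alone) were Ifnb1 at chr4:88519372-88521906, with -2.60 for cG and -2.10 for S, and Rsad2 at chr12:26438731-26453446, with -2.74 for cG and -2.54 for S. Ccl4 at chr11:83662136-83665073 had -1.22 for S, Irak3 at chr10:120139078-120139618 had -2.78 for cG, and Il12b at chr11:44389800-44390733 had -1.86 for P. The Irak3 and Ifnb1 peaks were also picked as lower in PScG against PS. That contrast is a part of their cG differences, so those cG values are not separate support. The Ifnb1, Rsad2, Ccl4, Irak3 and Il12b differences were called by edgeR without each of their 8 libraries in turn, with Irak3 at an adjusted p of up to 0.049. No group had the 4 libraries that a search for outlying samples needs.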

How the results depend on the processing

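No called peak named in the report changed sign under any alternative, but the median of the cG peaks in cG against control did: with total-count scaling it went from -0.02 to 0.17 for the higher and from -0.33 to 0.04 for the lower peaks. Fitting only the groups compared gave 1338 peaks for cG, 1276 for S and 1953 against the mean of the pairs. Thinning every library to 8181254 counts gave 441, 285 and 592, so depth limits these counts. Scaling by total counts gave 11241 peaks for P, 20069 for cG on PS against cG alone and 20302 for S on PcG against S alone. With it the share of higher calls was 27.6% for S (49.0% as analysed), 95.7% for P (46.6%), 82.3% for the mean (49.8%), 10.6% (39.9%) and 8.59% (42.2%) for the cG and S differences, and the median of all peaks for P moved from 0.01 to 0.30. Offsets by abundance gave 58.6% for P and 63.3% for the mean, and total counts without the 35 very abundant peaks, an alternative chosen after seeing the data, 57.3% for P and 29.7% for the S difference. The mitochondrial share as a covariate gave 26 peaks for P, 95 for the mean, and 2411 and 3312 for the cG and S differences. Without 1 library the counts were 104 to 395 (cG), 39 to 153 (S), 2578 to 2830 (P), 51 to 771 (mean), 8476 to 10487, 8964 to 11134 and 3591 to 4147 (cG, S and P differences). With a replicate block the counts were 697, 498, 5369, 911, 12482, 13416 and 5096 in the same order. Deviations of same-numbered libraries correlated at -0.017 to 0.0132 over all tested peaks, whose median of 2.14 CPM leaves much counting error. Whether same-numbered libraries share a mouse, culture or batch is not given and cannot be settled by these values. DESeq2 gave 657, 643, 5440 and 1026 for the first 4.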
